A study of Homo sapiens with 44 samples.

Results

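The genes described here are the 2 partners of the TMPRSS2-ERG fusion, TMPRSS2 and ERG, and 5 genes known to be associated with ERG in prostate cancer, HLA-DMB, CRISP3, ARHGDIB, PLA1A and TDRD1. They were chosen by symbol, with earlier results of these data known. They are 7 of the 23368 genes in the deposited count table. All 7 were among the 13520 genes with enough counts to be tested. RNA was sequenced from tumors of VCaP, a human prostate cancer cell line in wide use that carries this fusion, taken at passage 61 and grown in HSD:Athymic Nude–Foxn1nu mice. Athymic nude mice lack mature T cells and keep their own vessels, stroma and other blood cells. Every mouse had been castrated, and dosing began once serum PSA had climbed back to its value before castration, so the vehicle tumors are castration-resistant too. The arms were enzalutamide (20 mg/kg/day, 14 tumors, 13 of them used), ARN-509 (20 mg/kg/day, 15 tumors) and vehicle (15 tumors), each dosed by gavage for 4 weeks. All tumors come from 1 cell line, so they say nothing about variation between patients or between fusion-positive cancers.

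The fusion joins the start of TMPRSS2, a gene for a transmembrane serine protease whose promoter is driven by androgen, to ERG, which encodes a transcription factor of the ETS family that normal prostate epithelium hardly makes. ERG protein then depends on androgen signalling, and it binds ETS sites next to many androgen response elements. A count per gene does not separate fusion transcripts from those of an unfused copy, so the ERG row holds whatever mixture the tumors made, and the TMPRSS2 row likewise.

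Enzalutamide and ARN-509 (apalutamide) are related antiandrogens that share a diarylthiohydantoin core and block androgen signalling. They differ in a cyclobutane ring in ARN-509 in place of the paired methyl groups of enzalutamide, and in a pyridine in ARN-509 in place of a benzene ring. The comparisons ask what each drug did to these genes in tumors that had already regrown after castration, and whether the drugs differed at the same daily dose.

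The promoters of HLA-DMB, ARHGDIB and CRISP3, which fell with both drugs, of PLA1A, which rose with enzalutamide, and of TDRD1, which differed between the drugs, are shown first, because ERG acts through ETS sites and androgen through its own response element. The RefSeq table (GRCh38.p14) had entries for 6 of the 7 genes, all but TMPRSS2, and each window below is the 250 bases before an annotated start, 5′ to 3′ on the gene's strand. Capitals mark the ETS cores AGGAAG or CGGAAG, or the androgen response half-site AGAACA, on either strand.
HLA-DMB (chr6:32941029-32941278, minus strand): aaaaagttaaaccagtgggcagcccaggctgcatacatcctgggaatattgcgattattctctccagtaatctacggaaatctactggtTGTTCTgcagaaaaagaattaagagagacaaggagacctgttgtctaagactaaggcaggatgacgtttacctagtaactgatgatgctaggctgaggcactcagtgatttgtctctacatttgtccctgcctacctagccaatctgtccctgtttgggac
ARHGDIB (chr12:14948897-14949146, minus strand): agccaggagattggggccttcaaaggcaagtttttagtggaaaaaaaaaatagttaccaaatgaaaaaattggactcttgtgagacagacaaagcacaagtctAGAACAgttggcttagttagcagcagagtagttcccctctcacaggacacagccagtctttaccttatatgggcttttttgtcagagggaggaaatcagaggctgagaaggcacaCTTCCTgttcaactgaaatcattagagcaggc
CRISP3 (chr6:49744389-49744638, minus strand): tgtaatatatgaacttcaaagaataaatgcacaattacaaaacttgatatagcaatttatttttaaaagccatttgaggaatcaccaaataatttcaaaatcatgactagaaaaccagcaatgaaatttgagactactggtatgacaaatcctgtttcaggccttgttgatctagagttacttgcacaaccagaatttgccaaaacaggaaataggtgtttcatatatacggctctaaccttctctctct
PLA1A (chr3:119600021-119600270, plus strand): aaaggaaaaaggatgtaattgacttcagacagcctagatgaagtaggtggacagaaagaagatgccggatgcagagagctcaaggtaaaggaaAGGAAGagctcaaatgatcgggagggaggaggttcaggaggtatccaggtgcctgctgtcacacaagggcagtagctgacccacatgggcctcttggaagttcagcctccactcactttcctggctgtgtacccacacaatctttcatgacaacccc
TDRD1 (chr10:114179037-114179286, plus strand): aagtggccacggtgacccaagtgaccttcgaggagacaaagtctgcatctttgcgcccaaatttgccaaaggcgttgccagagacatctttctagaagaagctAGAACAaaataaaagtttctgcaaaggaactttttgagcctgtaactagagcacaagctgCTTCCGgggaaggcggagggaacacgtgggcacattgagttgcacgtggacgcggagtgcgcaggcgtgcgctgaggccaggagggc
The windows for HLA-DMB and CRISP3 held neither AGGAAG nor CGGAAG, whereas those printed for ARHGDIB, PLA1A and TDRD1 each held 1 match. Other ETS sequences, such as CGGAAA and AGGAAA, were not searched, and the HLA-DMB window holds the former and the CRISP3 window the latter. The androgen response half-site stood in the windows of HLA-DMB, ARHGDIB and TDRD1. Among 35116 promoter windows of the same length, 40.8% held either ETS core and 12.4% held AGAACA, so a match is common. A match is a description of letters and not a measured binding site. Some genes have further annotated starts, 13 windows in all for the 6 genes, and those of ARHGDIB and PLA1A that are not printed held none of these motifs, while the other window of TDRD1 overlaps the printed one and holds the same matches. The windows of ERG, a gene that the fusion puts behind the start of TMPRSS2, are not printed: 2 of its 4, which overlap each other, held AGGAAG, and none held AGAACA.

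The libraries of the 13 enzalutamide tumors held 4723513 to 16903189 counts (median 8623565), those of ARN-509 3377450 to 30125004 (median 7487470) and those of vehicle 4187464 to 25849380 (median 5713659). A fourteenth enzalutamide library, enzalutamide 4, held 80142 counts, with 8 for ERG, 4 for TMPRSS2 and 0 for HLA-DMB, and was left out. Vehicles 8 and 10 stood apart, with correlations of 0.889 and 0.916 to the mean of the rest of their arm. The luminal marker genes matched the label, and all 9 listed were tested. Levels are given in CPM, counts relative to the scaled library total. KLK3, the PSA gene, had medians of 254 CPM under enzalutamide, 203 under ARN-509 and 296 under vehicle, and the keratin gene KRT8 had 159, 141 and 148 CPM in the same order. Endothelial markers summed to 1.92 to 5.19 CPM under enzalutamide, 1.59 to 5.2 under ARN-509 and 3.1 to 8.8 under vehicle, with CDH5, KDR and EMCN at a median of 0 in every arm and 1 of 9 tested. Leukocyte markers summed to 5.07 to 11, 5.25 to 11.2 and 4.61 to 12.4 CPM in the same order of arms, with CD3E at 0 in all tumors and 1 of 12 tested. Fibroblast markers summed to 6.48 to 25.3, 6.03 to 24.3 and 8.14 to 37.5 CPM, with 3 of 9 tested. The medians of these sums were 10.1 CPM under enzalutamide, 11.2 under ARN-509 and 22.6 under vehicle. Of the 3 tested, FBN1 fell by 1.09 and 0.73 on the log2 scale and PDGFRA fell by 1.91 under ARN-509. The part of fibroblasts in the differences from vehicle was not tested. How mouse reads were treated is not given in the sources used here.

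Of the 7 genes, 1 rose and 3 fell under enzalutamide, and 0 rose and 4 fell under ARN-509, each against vehicle. HLA-DMB, CRISP3 and ARHGDIB fell with either drug, ERG fell under ARN-509, and PLA1A rose under enzalutamide. TMPRSS2 passed in neither comparison. Across all genes tested, 10.8% were called under enzalutamide (5.1% higher, 5.67% lower) and 30.8% under ARN-509 (14.7% higher, 16.1% lower), by edgeR's quasi-likelihood test with Benjamini-Hochberg adjustment at 0.05. The median log2 difference of the 7 genes was -0.15 under enzalutamide and -0.30 under ARN-509. The median size regardless of sign was 0.36 and 0.30, beside 0.11 and 0.17 over all tested genes. Because the 7 genes were chosen with earlier results of these data known, these shares and sizes describe them and test nothing. Both comparisons use the same vehicle tumors, so their values are set side by side and are not independent of each other. In bulk tumor RNA, fewer cells of a type and less RNA per cell cannot be told apart.

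**Figure D1:**
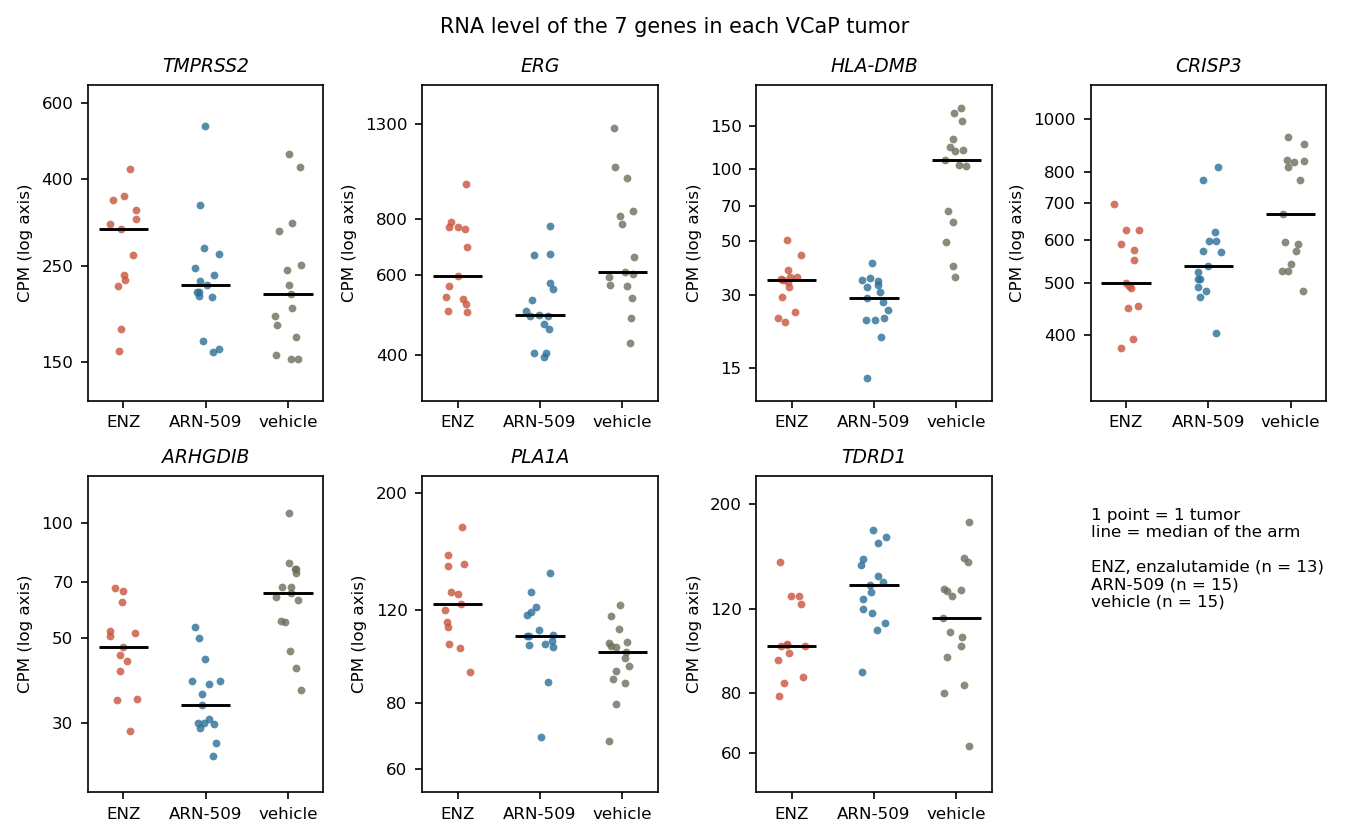
Levels of the 7 genes, in CPM on a log axis, in each tumor of the enzalutamide (n = 13), ARN-509 (n = 15) and vehicle (n = 15) arms; each point is 1 tumor and each line the median of its arm. HLA-DMB stands out, with medians of 34.6 and 29.2 CPM in the drug arms against 109 CPM under vehicle, while the arms overlap for every gene.

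ERG, the 3′ partner of the fusion, was among the more abundant of the 7 genes. Its lowest, median and highest levels were 498, 598 and 957 CPM under enzalutamide, 394, 491 and 773 CPM under ARN-509, and 425, 610 and 1273 CPM under vehicle. Under ARN-509, 12 of 15 tumors lay below the vehicle median and 3 lay below the lowest vehicle tumor, while 6 vehicle tumors lay above the highest ARN-509 tumor. ERG fell under ARN-509 by 0.45 on the log2 scale (SE 0.13, edgeR adjusted p = 0.00561), that is, it fell by 27%. Under enzalutamide the log2 difference was -0.14 (95% interval -0.40 to 0.12, edgeR adjusted p = 0.558), with 7 of 13 tumors below the vehicle median. The 3 highest vehicle tumors, vehicles 13, 11 and 10 at 1273, 1046 and 986 CPM, exceeded every drug-treated tumor. Endothelial cells also use ERG. Their marker sums, given above, had medians of 3.4 CPM under enzalutamide, 2.9 under ARN-509 and 6.5 under vehicle. The sums overlapped between the arms and lay below 10 CPM in every tumor. In the same order VWF, too rare to be tested, had medians of 0.354, 0.185 and 3.15 CPM. ESAM, the only endothelial marker tested, had 1.26, 1.45 and 1.27 CPM and did not pass. The part of endothelial cells in the result was not tested.

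TMPRSS2, the 5′ partner, passed the test under neither drug. It ran through 159, 305 and 422 CPM (lowest, median, highest) under enzalutamide, 157, 226 and 530 CPM under ARN-509, and 152, 215 and 456 CPM under vehicle. Its log2 difference from vehicle was 0.24 under enzalutamide (95% interval -0.10 to 0.57, edgeR adjusted p = 0.416) and 0.03 under ARN-509 (-0.30 to 0.36, adjusted p = 0.907). The arms overlapped almost wholly, although 11 of 13 enzalutamide tumors lay above the vehicle median. The 2 vehicle tumors that stood apart, 8 and 10, were the 2 highest of their arm for TMPRSS2, at 426 and 456 CPM. Without both, the enzalutamide difference was 0.43 (edgeR adjusted p = 0.0625). By limma voom with sample weights it passed, at 0.45 (adjusted p = 0.0216).

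The balance between the partners was compared as the ratio of ERG to TMPRSS2 counts within each tumor. This measure was chosen after the data had been seen and does not depend on how libraries are scaled. The dependence on GC content and transcript length, described below, was not removed from it. The ratio ran from 1.68 to 3.38 (median 2.27) under enzalutamide, from 1.25 to 2.56 (median 2.3) under ARN-509, and from 1.13 to 4.28 (median 3.31) under vehicle. All 15 ARN-509 tumors and 11 of 13 enzalutamide tumors lay below the vehicle median. The mean log2 ratio differed from that under vehicle by -0.38 with enzalutamide (two-sided permutation test, p = 0.0193, adjusted over 3 comparisons 0.029) and by -0.46 with ARN-509 (p = 0.00159, adjusted 0.00477). Between enzalutamide and ARN-509 it differed by 0.08 (permutation p = 0.46). The lowest ratio under vehicle, 1.13, was that of vehicle 8, and without vehicles 8 and 10 the differences from vehicle were -0.52 and -0.61 (adjusted permutation p = 0.00021 and 3e-05).

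**Figure D2:**
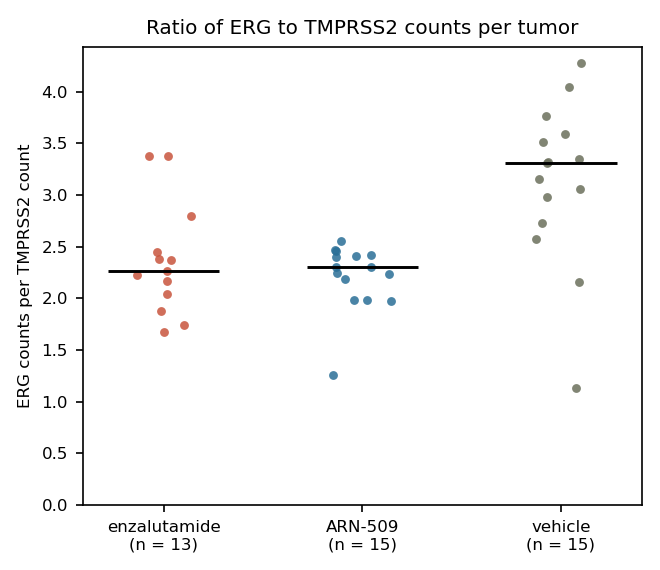
ERG counts per TMPRSS2 count in each tumor of the enzalutamide, ARN-509 and vehicle arms; each point is 1 tumor and each line the median of its arm. The medians are 2.27 and 2.3 in the drug arms and 3.31 under vehicle, and vehicle 8 is the lowest point of all at 1.13.

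HLA-DMB, which encodes the beta chain of HLA-DM, the chaperone that loads peptides onto MHC class II molecules, showed the largest change of the 7 genes under either drug. Its lowest, median and highest levels were 23.1, 34.6 and 50.8 CPM under enzalutamide, 13.6, 29.2 and 40.8 CPM under ARN-509, and 35.5, 109 and 179 CPM under vehicle. Below the lowest vehicle tumor lay 8 of 13 enzalutamide and 14 of 15 ARN-509 tumors. HLA-DMB fell under enzalutamide by 1.62 on the log2 scale (SE 0.19, edgeR adjusted p = 1.75e-08) and under ARN-509 by 1.87 (SE 0.18, adjusted p = 1.9e-10), so that the fitted level fell by 67.5% with enzalutamide and fell by 72.6% with ARN-509. By p-value it ranked 23rd of the 13520 tested genes under enzalutamide and 10th under ARN-509. The vehicle tumors themselves were widely spread: vehicles 11, 12, 2, 10 and 14 lay between 35.5 and 66.7 CPM, and the others between 103 and 179 CPM.

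The other MHC class II genes were mostly at low levels. Of 17 other class II genes listed, 8 were tested, of which 0 rose and 2 fell under enzalutamide and 0 rose and 5 fell under ARN-509. These are 25% and 62.5% of the tested genes, beside 10.8% and 30.8% of all genes. HLA-DMA, the alpha chain partner of HLA-DMB, had medians of 2.88 CPM under enzalutamide, 2.43 under ARN-509 and 4.63 under vehicle, and fell by 0.57 (adjusted p = 0.0158) and 0.80 (adjusted p = 0.000223) on the log2 scale. HLA-DPA1 also fell (adjusted p = 0.00736 and 1.31e-05 in the same order), while HLA-DPB1 was at -0.35 under enzalutamide (adjusted p = 0.0693) and -0.61 under ARN-509 (adjusted p = 0.000277). The class II transactivator CIITA, the invariant chain gene CD74 and HLA-DRA, which mark antigen-presenting cells, had too few counts to be tested. RFX5 and RFXAP, which encode subunits of the factor that binds class II promoters, did not pass, and RFXANK, the other subunit, fell by 0.36 under ARN-509. The median log2 difference of the 8 genes was -0.16 and -0.49. Leukocyte marker sums, given above, overlapped between the arms.

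CRISP3, a secreted cysteine-rich protein of the CAP superfamily, is abundant in fusion-positive prostate cancer. It was the highest of the 7 genes per kilobase of the longest annotated transcript. It had 379, 499 and 699 CPM (lowest, median, highest) under enzalutamide, 404, 537 and 814 CPM under ARN-509, and 483, 668 and 925 CPM under vehicle. CRISP3 fell by 0.41 under enzalutamide (SE 0.11, edgeR adjusted p = 0.00754) and by 0.30 under ARN-509 (SE 0.10, adjusted p = 0.0215). Below the vehicle median lay 12 of 13 enzalutamide and 13 of 15 ARN-509 tumors. The ARN-509 call was lost when libraries were scaled by their totals alone (-0.25, adjusted p = 0.061). Of 8 other CAP genes, 4 were tested. CRISP2, a close relative, fell by 1.05 and 0.92. Its medians were 2.67, 2.36 and 5.19 CPM under enzalutamide, ARN-509 and vehicle. CRISPLD1 rose by 0.67 and 1.09. The called share of the tested CAP genes was 50% under either drug, beside 10.8% and 30.8% of all genes.

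ARHGDIB, a GDP-dissociation inhibitor of small GTPases that is best known from blood cells, fell under both drugs. It had 28.6, 47.4 and 67.7 CPM (lowest, median, highest) under enzalutamide, 24.6, 33.4 and 53.4 CPM under ARN-509, and 36.5, 65.9 and 107 CPM under vehicle. Every ARN-509 tumor and 11 of 13 enzalutamide tumors lay below the vehicle median. The log2 fall was 0.43 under enzalutamide (SE 0.13, edgeR adjusted p = 0.0243) and 0.87 under ARN-509 (SE 0.13, adjusted p = 1.47e-06). Without vehicle 13, the highest tumor, the enzalutamide difference was -0.37 and just missed the threshold (adjusted p = 0.0502); the call held in the other 27 of 28 fits that left out 1 library. Leukocyte marker sums, given above, overlapped between the arms, and their part in the result was not tested.

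PLA1A, a secreted phospholipase that makes lysophosphatidylserine, was the gene that rose. Its lowest, median and highest levels were 91.5, 123 and 172 CPM under enzalutamide, 69.2, 107 and 141 CPM under ARN-509, and 67.8, 99.9 and 123 CPM under vehicle. Above the highest vehicle tumor lay 7 of 13 enzalutamide tumors and 2 of 15 ARN-509 tumors. PLA1A rose by 0.36 under enzalutamide (SE 0.087, edgeR adjusted p = 0.00313), and the difference under ARN-509 was 0.15 (95% interval -0.02 to 0.32, adjusted p = 0.167). It was also the least variable of the 7 between tumors of an arm, with a biological coefficient of variation of 0.159, against 0.328 for HLA-DMB and 0.307 for TMPRSS2. Of 12 related lipases and lysophosphatidylserine receptors, 3 were tested, and the endothelial lipase gene LIPG fell by 1.06 and 1.09. The called share of those tested was 33.3% under either drug, beside 10.8% and 30.8% of all genes.

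TDRD1, a Tudor-domain protein of the germline piRNA pathway that is switched on in ERG-positive prostate cancer, passed against vehicle in neither drug arm. It had 78.8, 100 and 151 CPM (lowest, median, highest) under enzalutamide, 88.6, 135 and 176 CPM under ARN-509, and 61.9, 115 and 183 CPM under vehicle. The log2 difference was -0.15 under enzalutamide (95% interval -0.39 to 0.08, edgeR adjusted p = 0.455) and 0.20 under ARN-509 (-0.02 to 0.43, adjusted p = 0.156). The vehicle arm spanned the other arms, and its lowest and highest tumors were vehicles 8 and 10. By limma voom the ARN-509 difference passed at 0.22 (adjusted p = 0.0447), and so it did by edgeR without vehicle 10, at 0.26 (adjusted p = 0.0499). Of 19 other Tudor and piRNA genes, 10 were tested: SND1 rose under enzalutamide (0.21), and TDRD6 and PIWIL4 rose under ARN-509 (0.77 and 0.66). These are 10% and 20% of the tested genes, beside 10.8% and 30.8% of all genes, so neither share was above the background. PIWIL4 was rare, at medians of 1.13 CPM under enzalutamide, 1.47 under ARN-509 and 0.961 under vehicle.

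Per kilobase of the longest annotated transcript, the order of the vehicle means was CRISP3 (315 CPM per kb), ERG (143), TMPRSS2 (74.9), PLA1A (54.9), ARHGDIB (51.8), TDRD1 (26.0) and HLA-DMB (22.9). CRISP3 and ERG, ERG and TMPRSS2, and ARHGDIB and TDRD1 differed by more than either SD. The other neighbours in that order did not: TMPRSS2 had an SD of 29.3, PLA1A 7.86, ARHGDIB 13.7, TDRD1 7.03 and HLA-DMB 10.1 CPM per kb. By these lengths HLA-DMB (4569 bases) was last in the drug arms, at 7.45 CPM per kb under enzalutamide and 6.26 under ARN-509. PLA1A stood above ARHGDIB there, at 70.7 against 38.3 and at 60.9 against 28.2 CPM per kb. The order can depend on the transcript chosen for each gene, and shorter transcripts were not tried.

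**Figure D3:**
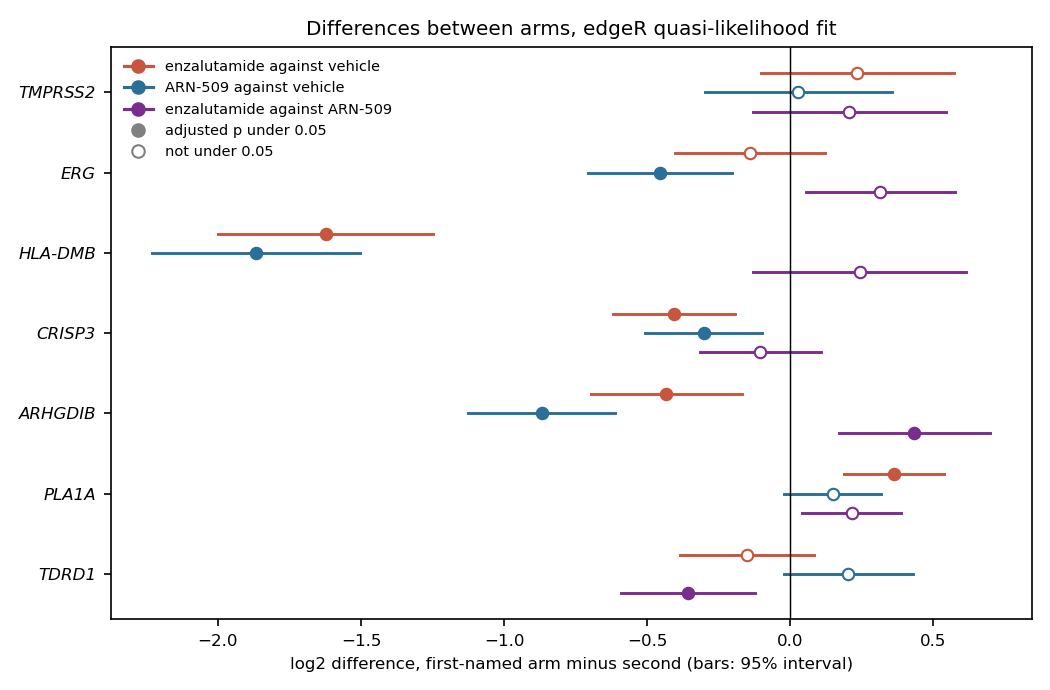
Log2 differences of the 7 genes for enzalutamide against vehicle, ARN-509 against vehicle and enzalutamide against ARN-509, with bars for the 95% interval; filled points have an edgeR adjusted p under 0.05. HLA-DMB lies farthest left, at -1.62 and -1.87 against vehicle, and between the drugs ARHGDIB (0.43) and TDRD1 (-0.36) are filled.

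All 7 genes were compared between the drugs at the matched dose and time, which makes 7 pairs of levels, where 26.8% of all tested genes were called (12.2% higher and 14.6% lower with enzalutamide). With enzalutamide, 1 of the 7 was higher and 1 lower than with ARN-509. That is 28.6% of the 7, so the share was near the background. ARHGDIB was higher by 0.43 (SE 0.13, edgeR adjusted p = 0.0153), with 12 of 13 enzalutamide tumors above the ARN-509 median. TDRD1 was lower, at -0.36 (SE 0.12, adjusted p = 0.0223), with 12 of 13 enzalutamide tumors below that median. Neither call held once a fit per library had removed the dependence on GC content and transcript length: ARHGDIB was then at 0.32 (adjusted p = 0.0952) and TDRD1 at -0.20 (adjusted p = 0.129).

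Over all genes, the log2 differences between the drugs tracked base composition and size, with a Spearman coefficient of 0.604 for GC content and -0.511 for transcript length. The differences from vehicle did so less strongly. Their coefficients for GC content and length were 0.204 and -0.196 under enzalutamide and -0.414 and 0.324 under ARN-509. TDRD1 transcripts have a GC content of 40.6%, lower than most tested genes, and those of ARHGDIB have 48.4% and are short. ERG was higher with enzalutamide by 0.31 without passing (95% interval 0.05 to 0.58, adjusted p = 0.0625), and with that dependence removed it passed at 0.40 (adjusted p = 0.0461). All 13 enzalutamide tumors lay above the ARN-509 median for ERG. PLA1A was close to the threshold at 0.21 (0.04 to 0.39, adjusted p = 0.0575). For TMPRSS2 (0.21, -0.13 to 0.55), HLA-DMB (0.24, -0.13 to 0.62) and CRISP3 (-0.10, -0.32 to 0.11) the intervals span 0, which does not show that the drugs act alike on them.

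Whether the other genes varied with ERG from tumor to tumor was tested over the 43 tumors after the arm means had been subtracted, for 6 relations, with tumors permuted within arms. TMPRSS2 had the closest relation (Pearson r 0.641, permutation p = 1e-05, adjusted 6e-05; Spearman coefficient 0.704, permutation p = 1e-05), where 1e-05 is the smallest p these permutations can give. Of 12796 genes, TMPRSS2 ranked 73rd by its r with ERG, and ERG ranked 18th by its r with TMPRSS2. The relation held within the ARN-509 arm (r 0.846, adjusted permutation p = 0.00036) and the enzalutamide arm (r 0.658, adjusted permutation p = 0.0445). In the vehicle arm, where vehicle 8 combined high TMPRSS2 with low ERG, r was 0.528 (adjusted permutation p = 0.128), while the Spearman coefficient of 0.625 passed (adjusted permutation p = 0.0446). Without vehicles 8 and 10 the pooled r was 0.77, and without the 2 tumors farthest from the median ERG level it was 0.661.

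ARHGDIB (r 0.462, permutation p = 0.00255, adjusted 0.00576; Spearman 0.343, adjusted p = 0.0579) and PLA1A (r 0.442, permutation p = 0.00288, adjusted 0.00576; Spearman 0.418, adjusted p = 0.0195) also varied with ERG, PLA1A by both coefficients and ARHGDIB by Pearson's r alone. Their r within the enzalutamide, ARN-509 and vehicle arms was 0.71, 0.407 and 0.358 for ARHGDIB and 0.42, 0.508 and 0.45 for PLA1A. The Spearman coefficient of ARHGDIB under vehicle was 0.0571. Without the 2 farthest tumors r was 0.385 for ARHGDIB and 0.43 for PLA1A. Of 12796 genes, ARHGDIB ranked 624th and PLA1A 744th by pooled r with ERG, so many genes varied with ERG more closely than either.

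For TDRD1 the pooled r of 0.406 (permutation p = 0.0145, adjusted 0.0218; Spearman 0.319, adjusted p = 0.0705) passed by Pearson's r alone and was not shared by the arms: r was -0.122 under enzalutamide, 0.179 under ARN-509 and 0.717 under vehicle. It was lost without vehicles 8 and 10 (r 0.291, adjusted permutation p = 0.116), and was 0.389 without the 2 farthest tumors. Of 12796 genes, TDRD1 ranked 974th by its pooled r with ERG, and ERG ranked 3230th by its r with TDRD1. HLA-DMB (r 0.05, permutation p = 0.79; Spearman 0.124, p = 0.453) and CRISP3 (r -0.01, permutation p = 0.975; Spearman -0.01, p = 0.93) showed no detectable relation over all tumors, and their r without the 2 farthest tumors was 0.201 and 0.01. Within arms, HLA-DMB had r of 0.551 under enzalutamide (adjusted permutation p = 0.102; Spearman 0.643, adjusted p = 0.0406), 0.219 under ARN-509 and -0.136 under vehicle. For CRISP3 the values were 0.242, -0.343 and 0.0468, of which none passed. The points of each relation share their library and its scaling. ERG and TMPRSS2 had correlations of 0.141 and 0.139 with the log library total.

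**Figure D4:**
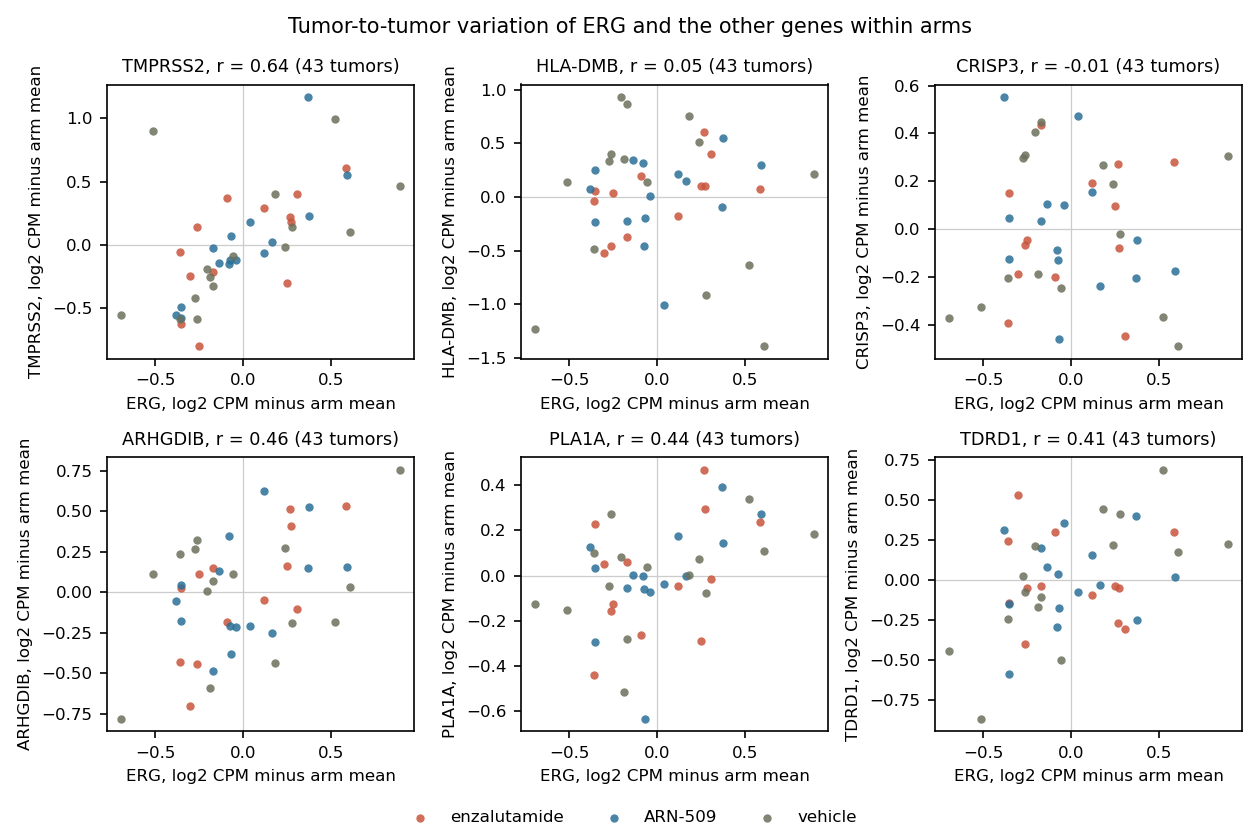
Each of the other 6 genes against ERG in the 43 tumors, as log2 CPM minus the mean of the arm; each point is 1 tumor, coloured by arm. TMPRSS2 rises with ERG (r 0.641) apart from vehicle 8 at the upper left, while HLA-DMB and CRISP3 show no trend.

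Each gene had a different set of closest companions, named here as the 3 genes with the highest r over the 43 tumors after subtracting arm means, with no test. For TMPRSS2 they were PMEPA1 (r 0.829, Spearman 0.811), PLXND1 (0.722, 0.739) and FAM110B (0.69, 0.673). For ERG they were KCNC4 (0.786, 0.727), RIN2 (0.772, 0.732) and CLCF1 (0.771, 0.59). HLA-DMB went with CSDA (0.813, 0.753), STEAP4 (0.789, 0.788) and UAP1 (0.745, 0.556); STEAP4 is a metalloreductase and UAP1 an enzyme that makes UDP-N-acetylglucosamine.

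CRISP3 had no companion above 0.632 (RAB11A, then SYPL1 at 0.591 and DNAJC21 at 0.579). ARHGDIB went with CRTAP (0.759), ANAPC5 (0.751) and FAM210B (0.705), and PLA1A with GLUD1 (0.717), SFTPA2 (0.678) and LGI1 (0.669). TDRD1 had the tightest, ZBTB10 (0.922), PREPL (0.92) and ZNF704 (0.919). Many genes varied with TDRD1, and 25.2% of 12796 genes had a higher r with it than ERG, whose r was 0.406. Among the 7 genes, HLA-DMB, CRISP3 and ARHGDIB, which fell with both drugs, had r of 0.366 to 0.395 with each other within arms.

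The fusion partners lie on chromosome 21 with a row of genes between them. Of 16 listed genes of that stretch, 15 were tested, of which 3 rose and 1 fell under enzalutamide and 3 rose and 2 fell under ARN-509. These are 26.7% and 33.3% of the tested genes, beside 10.8% and 30.8% of all genes, so that the share under ARN-509 was near the background. ETS2, which encodes another ETS factor and is ERG's neighbour, fell by 0.54 and 0.55 (adjusted p = 0.000446 and 0.000101), at medians of 22.4 CPM under enzalutamide, 21.6 under ARN-509 and 31.7 under vehicle. IGSF5 rose by 0.50 and 0.40 and DSCAM, a cell adhesion gene, by 0.58 and 0.50, while SH3BGR rose under enzalutamide (0.48) and BRWD1 under ARN-509 (0.50). FAM3B, close to TMPRSS2, fell under ARN-509 by 0.34. The median log2 difference of the 15 genes was -0.06 and 0.05. Between the drugs, BRWD1 (-0.54) and B3GALT5 (-0.81) were lower with enzalutamide.

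**Figure D5:**
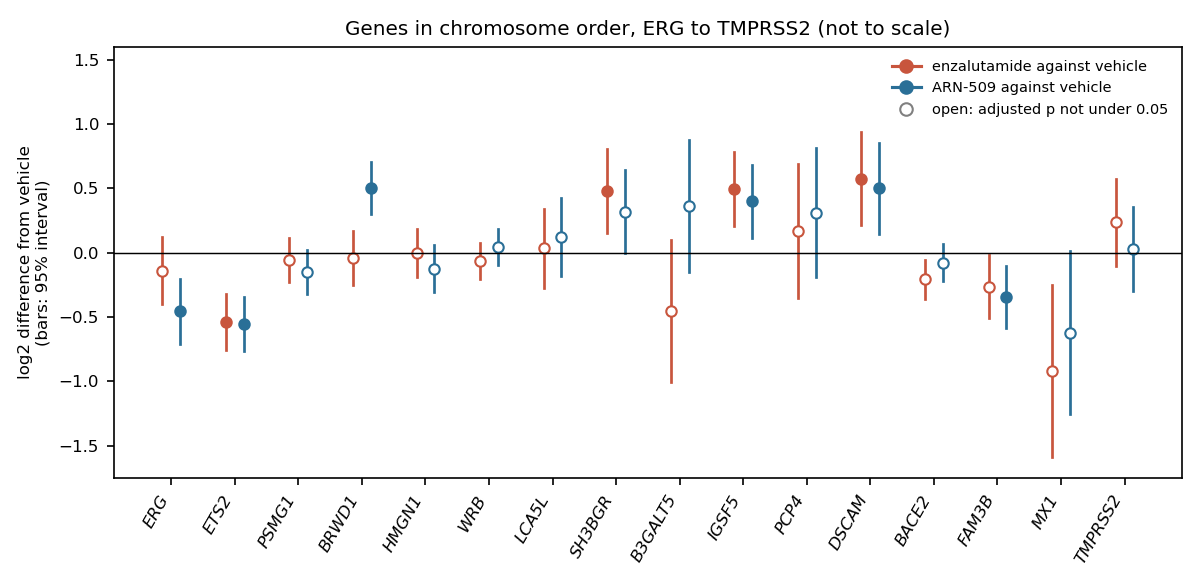
Log2 difference from vehicle under enzalutamide and ARN-509 for ERG, TMPRSS2 and 14 of the genes between them in chromosome order, not to scale; bars are 95% intervals and filled points have an edgeR adjusted p under 0.05. ETS2, next to ERG, is at -0.54 and -0.55, while TMPRSS2 at the other end is at 0.24 and 0.03.

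Other genes that serve as 5′ partners of ETS fusions in prostate cancer, most of them androgen-regulated like TMPRSS2, fell where they passed. All 10 listed were tested, and 0 rose and 4 fell under enzalutamide and 0 rose and 5 fell under ARN-509, with a median log2 difference of -0.15 and -0.22. All genes were called lower in 5.67% and 16.1% of cases. SLC45A3, the prostate gene prostein, fell by 0.52 and 0.47, FKBP5, which encodes an HSP90 co-chaperone, by 0.44 and 0.59, and ACSL3 by 0.44 and 0.32. HNRNPA2B1 fell under enzalutamide (0.19), and KLK2 (0.25) and CANT1 (0.34) under ARN-509. Between the drugs, KLK2 (0.25) and CANT1 (0.21) were higher with enzalutamide. KLK2 resembles KLK3, and reads could be split between them.

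Among 24 further genes tied to ERG in prostate cancer, 18 were tested, of which 2 rose and 4 fell under enzalutamide and 1 rose and 5 fell under ARN-509 (median -0.12 and -0.08). That is 33.3% of those tested in each comparison, above the 10.8% of all genes under enzalutamide and close to the 30.8% under ARN-509. The growth hormone receptor gene GHR fell by 2.25 and 1.98, at medians of 2.16 CPM under enzalutamide, 2.74 under ARN-509 and 11 CPM under vehicle. KCNH8, a potassium channel gene, fell by 1.19 and 0.93 at medians of 44.5, 56.6 and 101 CPM in the same order. FZD4, a Wnt receptor, fell by 0.70 and 0.48 and the transcription factor SOX9 by 0.69 and 0.48, while NCALD, a neuronal calcium sensor, rose by 0.66 and 0.77. The kinase gene PIM1 rose under enzalutamide (0.31), and the deacetylase gene HDAC1 fell under ARN-509 (0.21).

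Of 27 other ETS factors, 17 were tested, of which 0 rose and 4 fell under enzalutamide and 3 rose and 3 fell under ARN-509 (median -0.03 and 0.13). Those called were 23.5% and 35.3% of the tested factors, beside 10.8% and 30.8% of all genes, so that the share under ARN-509 was near the background. ETV6 fell by 0.71 and 0.65 and SPDEF, a prostate-epithelial ETS factor, by 0.43 and 0.59, beside ETS2 above, and EHF fell under enzalutamide (0.37). ELK3 (0.64), ELK4 (0.29) and ELF2 (0.19) rose under ARN-509. ETV1, ETV4, ETV5 and FLI1, which other prostate cancers use as fusion partners, had too few counts to be tested. Between the drugs, ETV3 (-0.59), GABPA (-0.55), ELK4 (-0.50) and EHF (-0.40) were lower with enzalutamide.

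Among 16 other transmembrane serine proteases and their inhibitors, relatives of TMPRSS2, 9 were tested. Those called were 22.2% under enzalutamide and 44.4% under ARN-509, beside 10.8% and 30.8% of all genes. TMPRSS4 rose by 1.24 and 1.42, at medians of 5.86 CPM under enzalutamide, 6.45 under ARN-509 and 2.44 under vehicle. The hepsin gene HPN rose under enzalutamide (0.24), and the matriptase gene ST14 (0.34) with its inhibitors SPINT1 (0.25) and SPINT2 (0.26) fell under ARN-509. Set against ARN-509, enzalutamide tumors had more HPN (0.27), ST14 (0.30), SPINT1 (0.14) and SPINT2 (0.25). Between the drugs the called share was 44.4% of those tested, beside 26.8% of all genes.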

How the data were processed

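The authors deposited raw counts per gene for 44 tumors; each column was matched to its sample by its label. The submitters' processing notes name hg19, TopHat2 2.1.0, HTSeq 0.6.1, Picard 1.77 and bcl2fastq 1.8.4, without order or annotation. Libraries were made with TruSeq RNA v2, per the labels' protocols, a kit that does not mark strand, so overlapping antisense genes and near-identical copies (HLA and KLK genes) are uncertain.

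From the deposited counts, 43 libraries were fitted together in edgeR 4.0.16 (R 4.3.3): filterByExpr by arm, TMM scaling, a robust quasi-likelihood fit with arm as the only term, and Benjamini-Hochberg adjustment over 13520 genes at 0.05. Adjusted p-values are this fit's unless another method is named. Levels are CPM on the TMM-scaled total; relations used log2 CPM (prior count 2). Enzalutamide 4 was left out. Labels give as many libraries as mice but do not tie them, so p-values measure the spread between libraries. No 2 libraries of an arm were alike within sampling noise. Named genes are the 7 genes, up to 4 called genes per list and contrast by smallest p, 3 companions per gene, and marker genes; list genes beyond 4 were named after their values were seen. The 7 genes and the lists were chosen with earlier results of these data known.

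For GC content and transcript length, symbols were looked up in GENCODE for GRCh38 (95.8% of tested genes matched). Promoters are RefSeq's. The fit was tested on simulated data. Alternatives were other scalings and filters, DESeq2 1.42.0, limma 3.58.1 voom, permutation, a replicate block, thinned counts, and left-out libraries. Results for some genes are not reported here.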

Additional observations from a re-analysis of the deposited data

How the results depend on the processing

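The 43 libraries held at least 3377450 counts, and the rarest of the 7 genes, ARHGDIB, had 19556 counts over them. Of 889 values of the 7 genes under other settings, 867 kept their side of the threshold, 4 lost the call and 18 gained one. Among them, 2 differences that did not pass changed sign: TMPRSS2 for ARN-509 against vehicle fell below 0 in 6 fits that left out 1 library (lowest -0.0939, without ARN-509 10), and CRISP3 for enzalutamide against ARN-509 was 0.0265 with the GC content and length trend removed. The number of the 7 genes called between enzalutamide and ARN-509 was 2; it was 1 with each library's GC content and length trend removed, 4 by limma voom with quality weights, and 2 to 4 when 1 library was left out (4 without enzalutamide 8, ARN-509 2 or ARN-509 3, where ERG and PLA1A passed). Leaving out 1 library gave 3 to 4 genes for enzalutamide against vehicle and 4 to 5 for ARN-509 against vehicle, where the count was 4 in each. Over all tested genes, the count between the drugs was 1226 with the GC and length trend removed and 5718 by voom, against 3623, and the count for enzalutamide against vehicle was 2551 by voom, against 1455. Of the 6 relations with ERG, 4 passed by Pearson's r over all tumors, 2 in the enzalutamide arm alone, 1 in the ARN-509 arm alone and 1 in the vehicle arm alone; by the adjusted Spearman p the counts were 2, 3, 1 and 2. ERG with CRISP3 turned to r = 0.411 once enzalutamide 4, with its 80142 counts, was added, and ERG with TDRD1 was -0.122 in the enzalutamide arm alone. The causes of these changes were not tested.

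With the sample number as a replicate block, 4, 4 and 2 of the 7 genes were called for enzalutamide against vehicle, ARN-509 against vehicle and enzalutamide against ARN-509, as without it. Same-numbered tumors deviated together little on average. The mean correlation of their deviations was 0.0429, 0.0662 and 0.024, against 0.0019, 0.00245 and 0.000592 over all pairs. Of the same-numbered pairs, 3 of 13, 7 of 15 and 5 of 13 exceeded 0.1. Single pairs ran from -0.478 to 0.695 for ARN-509 against vehicle. Whether the numbers carry anything shared was not tested.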
